A study of Homo sapiens with 6 samples.

Results

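The core genes of the circadian clock were described in HEK293T cells that over-expressed *USF1* and in cells that received the empty vector. The set holds 10 genes, *PER1*, *PER2*, *PER3*, *CRY1*, *CRY2*, *CLOCK*, *BMAL1*, *BHLHE40*, *BHLHE41* and *NR1D1*, and every probeset that the platform annotation assigns to one of them was kept. This gave 14 of the 16569 probesets measured, with 1 probeset for 7 genes, 2 probesets for *PER1* and for *BHLHE40*, and 3 for *CLOCK*. HEK293T is a line of human embryonic kidney cells in which the large T antigen of SV40 is expressed. The USF1 cells were transiently transfected with the *USF1* coding region in a pcDNA4/HisMax expression vector, and the Empty vector cells with the empty vector alone. Total RNA of both groups was taken 48 hours later and hybridized to Affymetrix arrays, with n = 3 USF1 and n = 3 Empty vector arrays. Values are log2 RMA values of a probeset, and a probeset was called where limma gave an adjusted p-value under 0.05. The sources used here name no synchronization of the cells and a single time point, so the values carry no information on the phase of a rhythm.

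In the circadian clock, the basic helix-loop-helix proteins CLOCK and BMAL1 form a pair that binds E-box sequences and activates the PER and CRY genes, whose proteins return to the nucleus and repress the pair. BHLHE40 and BHLHE41 (also called DEC1 and DEC2) bind E-boxes as repressors, and NR1D1 (REV-ERB alpha) is a nuclear receptor that represses transcription of *BMAL1* in a second loop. *USF1* encodes another basic helix-loop-helix factor of E-boxes, and in mice USF1 is known to bind sites that the pair of CLOCK and BMAL1 also binds.

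Since USF1 and the clock factors read the same letters, the RefSeq promoters of the 10 genes (GRCh38.p14, 250 bases before to 50 bases after an annotated start) were searched on both strands for the E-box CACGTG and its variant CACGTT. All 10 genes had an entry, 14 promoters in all. The 1 entry of *PER2* belongs to a start that lies 11455 bases inside the gene, and the region before its outermost start was not searched. CACGTG was found for *PER1*, *BHLHE40* and *BHLHE41*, and it is held by 7.26% of all 35116 promoters. CACGTT was found for 5 genes, *PER2*, *CRY1*, *CRY2*, *CLOCK* and *NR1D1*, and it is held by 5.34% of all promoters. For *CRY2* and *CLOCK* the match lies before a start 357 and 977 bases inside the gene. The promoters of their outermost starts held neither form. Of the 14 promoters of the set 8 held either form, against 12.2% of all promoters. Further motifs were searched, and no match of one motif overlapped a match of another in these promoters. The D-box TTATGTAA (0.886% of all promoters) was found for *PER3*, the nuclear receptor half-site AGGTCA (13.8%) for *PER1*, *CRY2* and *BMAL1*, and the cAMP element TGACGTCA (1.85%) for none of the 10. Of the called genes, *PER2*, *CRY1* and *BHLHE41* held an E-box form, and *PER3* and *BMAL1* held neither. Every gene without a called probeset (*PER1*, *CRY2*, *CLOCK*, *BHLHE40* and *NR1D1*) held one as well. A link between motifs and differences was not tested. These are matches of letters, and binding was not measured. The stretches of *CRY2*, *CLOCK* and *NR1D1* are not shown. The stretches of the 4 genes that were higher in USF1 cells are given first, and then those of the 2 genes that hold CACGTG and did not pass the test, each 5′ to 3′ on the strand of the gene, with the motif in capitals (AACGTG is CACGTT on the other strand).
PER3, chr1:7784090-7784145, plus strand, D-box starting 177 bases before the start: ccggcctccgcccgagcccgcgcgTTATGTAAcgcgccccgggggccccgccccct
PER2, chr2:238288778-238288831, minus strand, variant starting 197 bases before the internal start: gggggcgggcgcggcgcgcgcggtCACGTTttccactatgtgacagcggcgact
CRY1, chr12:107093609-107093662, minus strand, variant starting 89 bases before the start: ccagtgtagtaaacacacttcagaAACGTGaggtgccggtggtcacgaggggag
BHLHE41, chr12:26125056-26125109, minus strand, E-box starting 48 bases before the start: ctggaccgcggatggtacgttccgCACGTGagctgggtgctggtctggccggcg
PER1, chr17:8152548-8152601, minus strand, E-box starting 173 bases before the start: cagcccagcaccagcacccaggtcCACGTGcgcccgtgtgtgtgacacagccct
BHLHE40, chr3:4979187-4979221, plus strand, E-box starting 245 bases before the start, near the edge of the window: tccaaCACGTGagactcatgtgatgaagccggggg

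Over-expression of *USF1* was accompanied by higher values of 4 genes that encode repressors of the clock and a lower value of *BMAL1*. *PER2*, *PER3*, *CRY1* and *BHLHE41* rose and *BMAL1* fell, while no probeset of *PER1*, *CRY2*, *CLOCK*, *BHLHE40* or *NR1D1* passed the test. This is 5 of 14 probesets (35.7%), where 11.9% of all probesets were called, and 4 upward calls, where 4.32% of all probesets were called upward and 7.6% downward. The genes were chosen with earlier results of these data known, so these shares are descriptions only. In 6 of the 14 probesets (42.9%) the USF1 arrays lay beyond all Empty vector arrays, as they did in 36.1% of all probesets. The absolute log2 difference was at least 0.5 in 4 of the 14 probesets (28.6%) and in 7.15% of all probesets. The median log2 difference of the 14 probesets was 0.03, and that of all probesets was -0.065. Arrays of whole cultures cannot tell less RNA per cell from fewer cells with that RNA.

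Array medians lay between 5.88 and 5.96 for USF1 and between 5.96 and 6.0 for Empty vector. Empty vector replicate 1 stood apart from the other 2 arrays of its group, with an SD of the difference over all probesets of 0.336 to each, against 0.182 between those. The 5′ minus 3′ value of the actin control probesets, which falls with RNA degradation, was -0.529, -0.681 and -0.493 in USF1 arrays, against -1.34, -1.04 and -0.516 in Empty vector arrays. That of the GAPDH control probesets was -0.345, -0.322 and -0.333 in USF1 arrays, against -0.582, -0.316 and -0.256 in Empty vector arrays. By GAPDH, Empty vector replicate 1 alone was low. The 1 probeset of *USF1* averaged 4.79 ± 0.13 in USF1 and 4.86 ± 0.43 in Empty vector arrays (SD, n = 3 each, adjusted p-value = 0.836 from limma). The plasmid carries only the coding region, and the sources used here do not give where the probes lie, so this value does not check the transfection. The study checked the USF1 protein by western blot, which is not analysed here. Of 10 genes listed for HEK293T, 6 had a probeset, with *VIM* at 10.19, *NEFM* at 10.37 and *NEFL*, at its probeset with the highest mean, at 8.14 in the mean of the USF1 arrays. *NEFL* was higher in USF1 cells at 2 of its 3 probesets (log2 differences of 0.38 and 0.41, adjusted p-values of 0.0312 and 0.021 from limma), though not at the one of the highest mean. *GATA3* of that list was lower in USF1 cells (-0.46, SE 0.11, adjusted p-value = 0.0344 from limma). None of the 16 markers listed for blood, liver, fat, fibroblasts and endothelium had a probeset of its own among the values, from which the authors had removed probesets with mostly absent calls. It is not stated whether each array had its own transfection, so the spread behind the p-values may be technical.

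**Figure D1:**
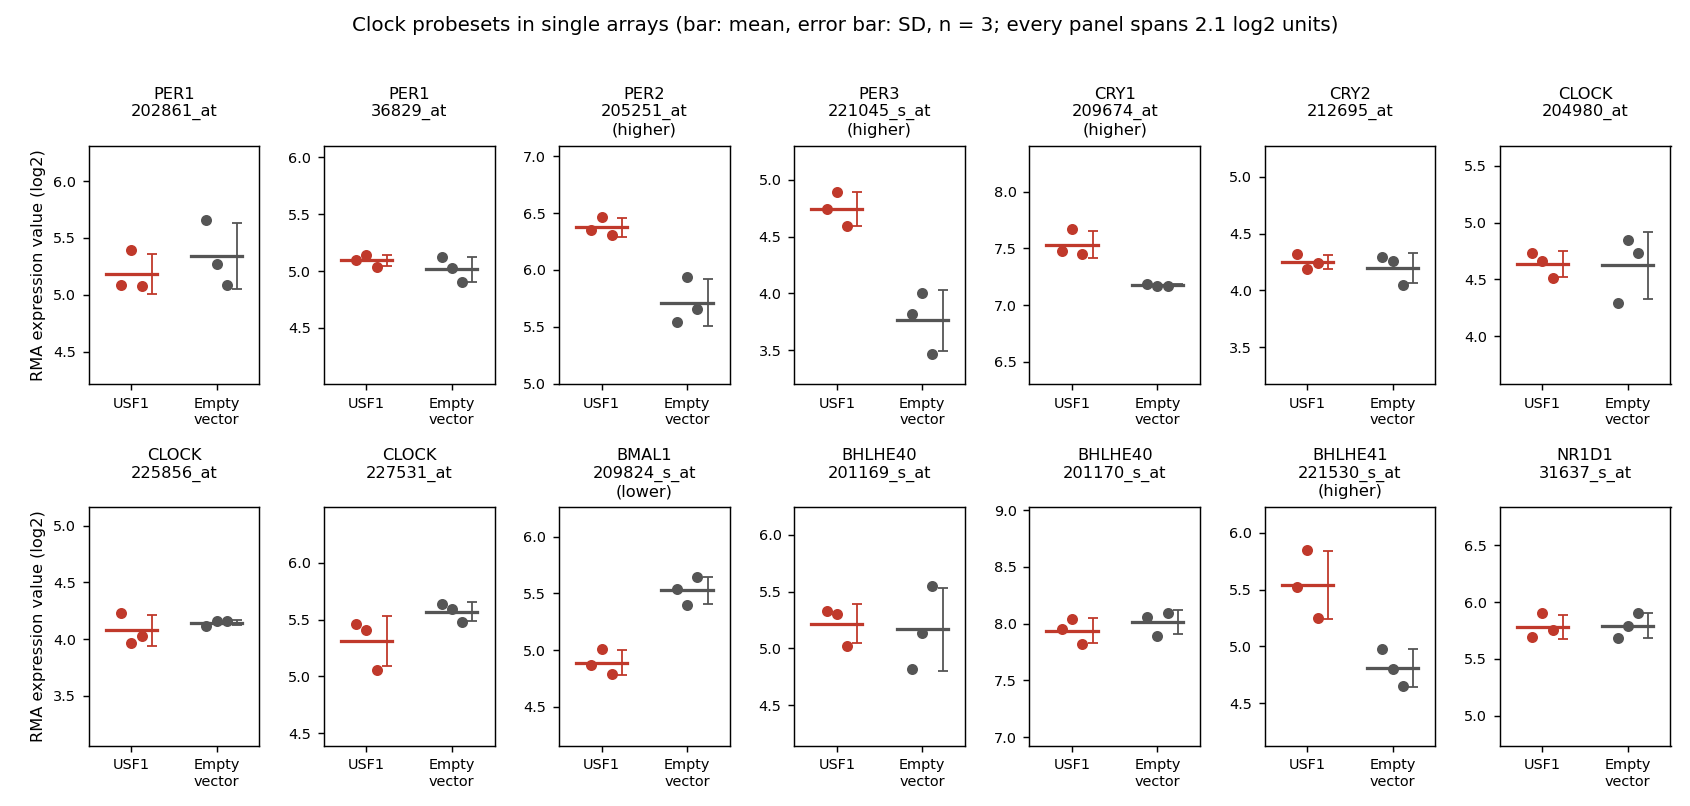
RMA expression value (log2, vertical axis) of the 14 clock probesets, 1 point per array for USF1 (red, left) and Empty vector (grey, right), with a bar at the mean and an error bar for the SD (n = 3). The USF1 arrays lie above all Empty vector arrays for *PER2*, *PER3*, *CRY1* and *BHLHE41* and below them for *BMAL1* and, by 0.02, for CLOCK probeset 227531_at.

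Of the 3 PER genes, which encode repressors that act together with the CRY proteins, *PER3* and *PER2* rose. *PER3* (chr1:7784291-7845177, probeset 221045_s_at) had log2 values of 4.74, 4.89 and 4.59 in USF1 arrays, against 3.82, 4.0 and 3.47 in Empty vector arrays. The groups did not overlap, with a gap of 0.59 between the lowest USF1 and the highest Empty vector array. The mean was 4.74 ± 0.15 in USF1 and 3.76 ± 0.27 in Empty vector cells (SD, n = 3 each), a log2 difference of 0.98 (limma, SE 0.14 and adjusted p-value = 0.00737) or 1.97-fold. This was the largest difference among the 14 probesets. A larger upward difference was found in 0.398% of all probesets, and the probeset ranked 87th of 16569 by the size of the difference in either direction. The probeset is among the 25% with the lowest mean over both groups, and 9.11% of all probesets had a lower mean. Its Empty vector values lay low on their arrays, where the lowest value of any probeset was 1.89, 3.25 and 2.95 in replicates 1, 2 and 3.

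*PER2* (chr2:238244044-238300065, probeset 205251_at) had log2 values of 6.35, 6.47 and 6.31 in USF1 arrays, against 5.54, 5.94 and 5.66 in Empty vector arrays. Again no arrays overlapped, and the gap was 0.37. The mean was 6.38 ± 0.09 in USF1 and 5.71 ± 0.21 in Empty vector cells (SD, n = 3 each), a log2 difference of 0.66 (limma, SE 0.12 and adjusted p-value = 0.0134) or 1.58-fold.

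*PER1*, the PER gene whose promoter stretch holds CACGTG, did not pass at either of its probesets. Probeset 202861_at had 5.09, 5.39 and 5.08 in USF1 arrays, against 5.66, 5.27 and 5.09 in Empty vector arrays, and probeset 36829_at had 5.10, 5.14 and 5.04 in USF1 arrays, against 5.12, 5.03 and 4.90 in Empty vector arrays. Both sets of arrays overlapped. The log2 differences were -0.15 (95% interval -0.50 to 0.20) and 0.08 (95% interval -0.13 to 0.28), with adjusted p-values of 0.539 and 0.602 from limma. The upper bounds of both intervals lie below the differences of *PER2* and *PER3*, but the difference between these genes was not itself tested. Both probesets are also assigned to *MIR6883*, a microRNA gene of 78 bases that lies inside *PER1*.

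The CRY genes encode the other repressors of CLOCK and BMAL1, and *CRY1* rose. *CRY1* (chr12:106991364-107093549, probeset 209674_at) had log2 values of 7.48, 7.67 and 7.45 in USF1 arrays, against 7.19, 7.17 and 7.17 in Empty vector arrays. The Empty vector arrays were nearly equal, and the lowest USF1 array lay 0.26 above the highest of them. The mean was 7.53 ± 0.12 in USF1 and 7.17 ± 0.01 in Empty vector cells (SD, n = 3 each), a log2 difference of 0.36 (limma, SE 0.09 and adjusted p-value = 0.039) or 1.28-fold, which was the smallest of the called differences and the nearest to the threshold. *CRY2* (probeset 212695_at) had 4.32, 4.19 and 4.24 in USF1 arrays, against 4.29, 4.26 and 4.05 in Empty vector arrays, and these overlapped. Its log2 difference was 0.05 (95% interval -0.17 to 0.27, adjusted p-value = 0.764 from limma). The mean level of this probeset lay above that of only 8.44% of all probesets.

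Of the activating pair, *BMAL1* fell and *CLOCK*, the partner of BMAL1 on E-boxes, did not pass. *BMAL1* (chr11:13276652-13387266, probeset 209824_s_at) had log2 values of 4.87, 5.01 and 4.79 in USF1 arrays, against 5.54, 5.40 and 5.64 in Empty vector arrays. Every USF1 array was below every Empty vector array, by at least 0.39. The mean was 4.89 ± 0.11 in USF1 and 5.53 ± 0.12 in Empty vector cells (SD, n = 3 each), a log2 difference of -0.64 (limma, SE 0.10 and adjusted p-value = 0.00929) or a fold change of 0.643.

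The 3 probesets of *CLOCK* differed in sign. Probeset 227531_at had 5.46, 5.41 and 5.06 in USF1 arrays, against 5.64, 5.59 and 5.48 in Empty vector arrays, so that its groups were apart by 0.02, and its log2 difference of -0.26 (95% interval -0.54 to 0.02) had an adjusted p-value of 0.182 from limma. Probeset 204980_at had 4.73, 4.66 and 4.51 in USF1 arrays, against 4.29, 4.85 and 4.73 in Empty vector arrays, with a log2 difference of 0.01 (95% interval -0.32 to 0.35). Probeset 225856_at had 4.23, 3.97 and 4.03 in USF1 arrays, against 4.12, 4.16 and 4.16 in Empty vector arrays, with a log2 difference of -0.07 (95% interval -0.28 to 0.15). In both of these the arrays overlapped, and the adjusted p-values from limma were 0.964 and 0.67. Their mean levels lay above those of only 17.8% and 5.94% of all probesets.

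**Figure D2:**
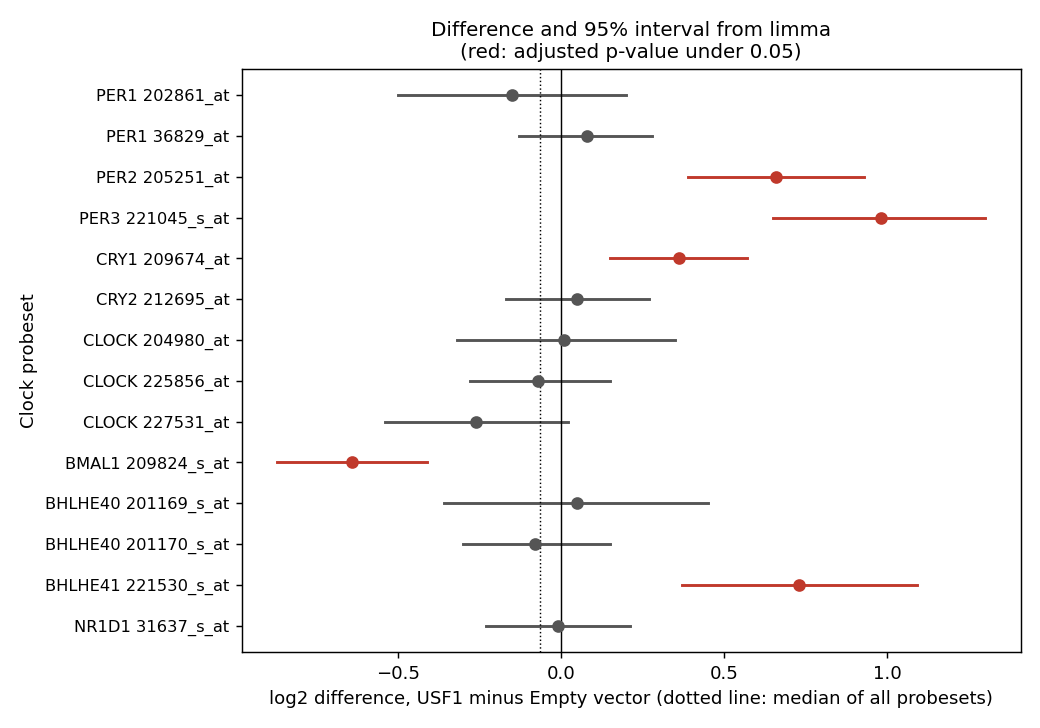
Log2 difference, USF1 minus Empty vector (horizontal axis), and its 95% interval from limma for the 14 clock probesets (vertical axis), in red where the adjusted p-value is under 0.05. *PER3* lies farthest right at 0.98, *BMAL1* is the red point left of 0 at -0.64, and the intervals of the 9 grey probesets include 0.

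The E-box repressors *BHLHE41* and *BHLHE40* are close relatives, and *BHLHE41* rose. *BHLHE41* (chr12:26120030-26125037, probeset 221530_s_at) had log2 values of 5.52, 5.85 and 5.25 in USF1 arrays, against 4.98, 4.80 and 4.65 in Empty vector arrays. The groups lay apart by 0.27, and the USF1 arrays spread more than those of any other clock probeset. The mean was 5.54 ± 0.30 in USF1 and 4.81 ± 0.16 in Empty vector cells (SD, n = 3 each), a log2 difference of 0.73 (limma, SE 0.16 and adjusted p-value = 0.0236) or 1.66-fold. *BHLHE40* probeset 201170_s_at had 7.95, 8.04 and 7.82 in USF1 arrays, against 8.06, 7.89 and 8.09 in Empty vector arrays. Its probeset 201169_s_at had 5.33, 5.30 and 5.02 in USF1 arrays, against 4.82, 5.14 and 5.55 in Empty vector arrays. Arrays overlapped in both, and the log2 differences of -0.08 (95% interval -0.30 to 0.15) and 0.05 (95% interval -0.36 to 0.45) had adjusted p-values of 0.633 and 0.881 from limma.

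*NR1D1*, the repressor of *BMAL1*, is measured here together with another gene. Its probeset 31637_s_at is shared with *THRA*, the thyroid hormone receptor alpha, whose gene overlaps *NR1D1* by 1075 bases on chromosome 17. The shared probeset had 5.69, 5.90 and 5.75 in USF1 arrays, against 5.68, 5.79 and 5.90 in Empty vector arrays. The arrays overlapped, and the log2 difference was -0.01 (95% interval -0.23 to 0.21, adjusted p-value = 0.955 from limma). The probeset of *THRA* alone (35846_at) had a log2 difference of -0.05 (limma, SE 0.08 and adjusted p-value = 0.706), so neither probeset passed, and the part of *NR1D1* in the shared value is not separated.

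Calls were repeated without each array in turn, because each group has 3 arrays. *PER3* was called in all 6 of these fits, with log2 differences between 0.83 and 1.10 and adjusted p-values from limma up to 0.0406. *BMAL1* was called in 5, with differences between -0.70 and -0.58, and lost its call without USF1 replicate 3 (adjusted p-value = 0.052 from limma). *PER2* was called in 4 (differences 0.58 to 0.78) and lost its call without USF1 replicate 1 or without USF1 replicate 3. *BHLHE41* was called in 3 (0.58 to 0.88) and lost its call without USF1 replicate 1, Empty vector replicate 2 or Empty vector replicate 3. *CRY1* was called in 1 (0.29 to 0.40), without Empty vector replicate 1, and lost its call without any other array (adjusted p-values from limma up to 0.108). The 5 signs held in each fit. Without both Empty vector replicate 1 and Empty vector replicate 2, the arrays with the low actin values, the differences from Empty vector replicate 3 were 1.27 for *PER3*, 0.89 for *BHLHE41*, 0.72 for *PER2*, 0.36 for *CRY1* and -0.75 for *BMAL1*. This comparison was chosen after the data were seen, rests on 1 Empty vector array and has no test. It follows the actin values, whereas the GAPDH value was low in Empty vector replicate 1 alone.

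**Figure D3:**
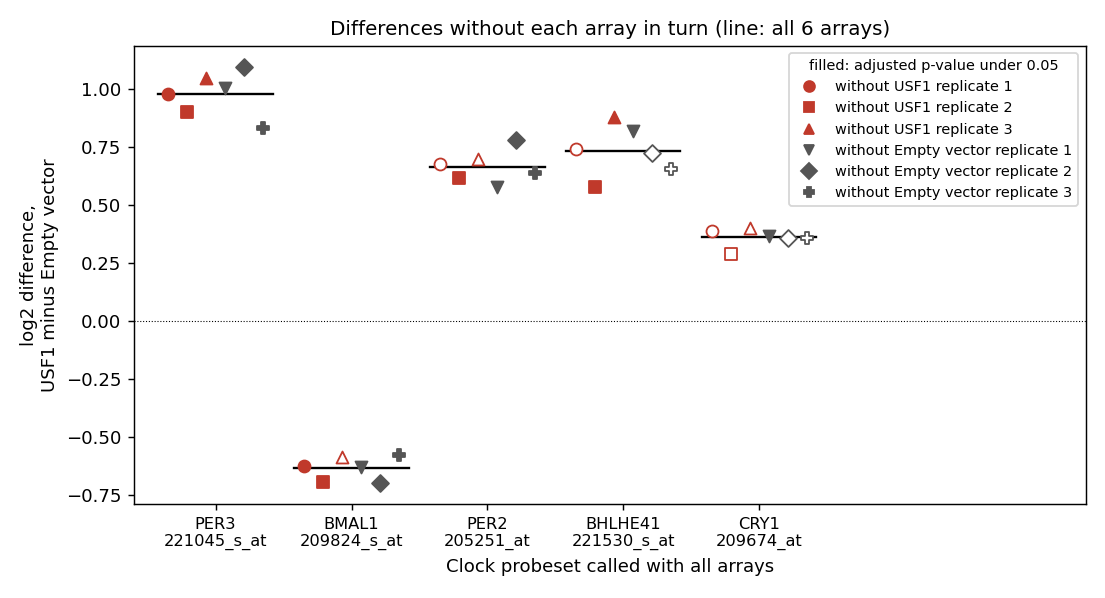
Log2 difference, USF1 minus Empty vector (vertical axis), of the 5 called clock probesets without each array in turn, in red for a USF1 array left out and in grey for an Empty vector array, filled where called, with a line at the value from all 6 arrays. All points of *PER3* are filled, and 1 point of *CRY1* is.

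Few of the other genes of the clock were called. Of 70 listed partners, regulators and outputs 56 had a probeset of their own, and 1 of these rose and 2 fell (5.36%), where 14.1% of 9586 genes were called (5.18% upward and 8.89% downward), with every gene taken at its brightest probeset, that of the highest mean. The median log2 difference of the 56 genes was -0.04. The genes nearest to the core loop did not pass. *BMAL2*, a relative of BMAL1, had a log2 difference of -0.16 (SE 0.10). *NR1D2*, the relative of NR1D1, averaged 7.63 ± 0.11 in USF1 and 7.63 ± 0.17 in Empty vector arrays (SD, n = 3 each). Of the output genes that encode PAR bZIP factors, which bind the D-box, *DBP* had a difference of 0.11 (SE 0.14) and *TEF* of 0.23 (SE 0.15). *NFIL3*, the repressor that binds the same element, had a difference of -0.39 (SE 0.15). The adjusted p-values from limma of these 5 genes lay between 0.127 for *NFIL3* and 0.973 for *NR1D2*.

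Of 16 measured kinases and phosphatases that act on clock proteins, *GSK3B* fell and none rose. *GSK3B*, a kinase that phosphorylates several clock proteins, had log2 values of 5.99, 5.98 and 5.85 in USF1 arrays, against 6.33, 6.37 and 6.32 in Empty vector arrays, a difference of -0.40 (limma, SE 0.08 and adjusted p-value = 0.0228), with 1 of its 3 probesets called. The casein kinases *CSNK1D* (0.04, SE 0.10) and *CSNK1E* (0.16, SE 0.12), which mark PER proteins for degradation, did not pass. Of 7 measured genes of ubiquitin ligases and deubiquitinases *SKP1* rose and none fell. *SKP1*, the adaptor of the ligases that degrade PER and CRY proteins, had 10.34, 10.27 and 10.35 in USF1 arrays, against 9.96, 9.96 and 9.95 in Empty vector arrays, a difference of 0.36 (limma, SE 0.08 and adjusted p-value = 0.0248), with 1 of its 4 probesets called. Of 13 measured coregulators *KMT2A* fell and none rose. *KMT2A*, a histone methyltransferase, had 5.66, 5.62 and 5.49 in USF1 arrays, against 5.99, 6.04 and 5.86 in Empty vector arrays, a difference of -0.37 (limma, SE 0.09 and adjusted p-value = 0.0377), with 1 of its 4 probesets called. In each of the 3 genes the arrays lay apart, as they did in 36.1% of all probesets. *GSK3B* and *SKP1* were called in 2 of the 6 fits that leave out an array, those without USF1 replicate 2 and without Empty vector replicate 1, and *KMT2A* in 0.

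None of the 4 measured PER and CRY partners and none of the 11 measured E-box outputs and inputs passed at the probeset with the highest mean. Among these were *TIMELESS* (-0.12, SE 0.16), *CIPC* (0.07, SE 0.09), which encodes an inhibitor of CLOCK, the output genes *NAMPT* (-0.15, SE 0.12) and *WEE1* (0.14, SE 0.09), and *MYC* (-0.22, SE 0.15). Dimmer probesets of 2 listed genes were called, 214016_s_at of *SFPQ* at -0.55 (SE 0.08) and 207709_at of *PRKAA2* at -0.50 (SE 0.09), with adjusted p-values of 0.00788 and 0.0143 from limma, while their brightest probesets were at 0.16 and -0.04 and did not pass.

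**Figure D4:**
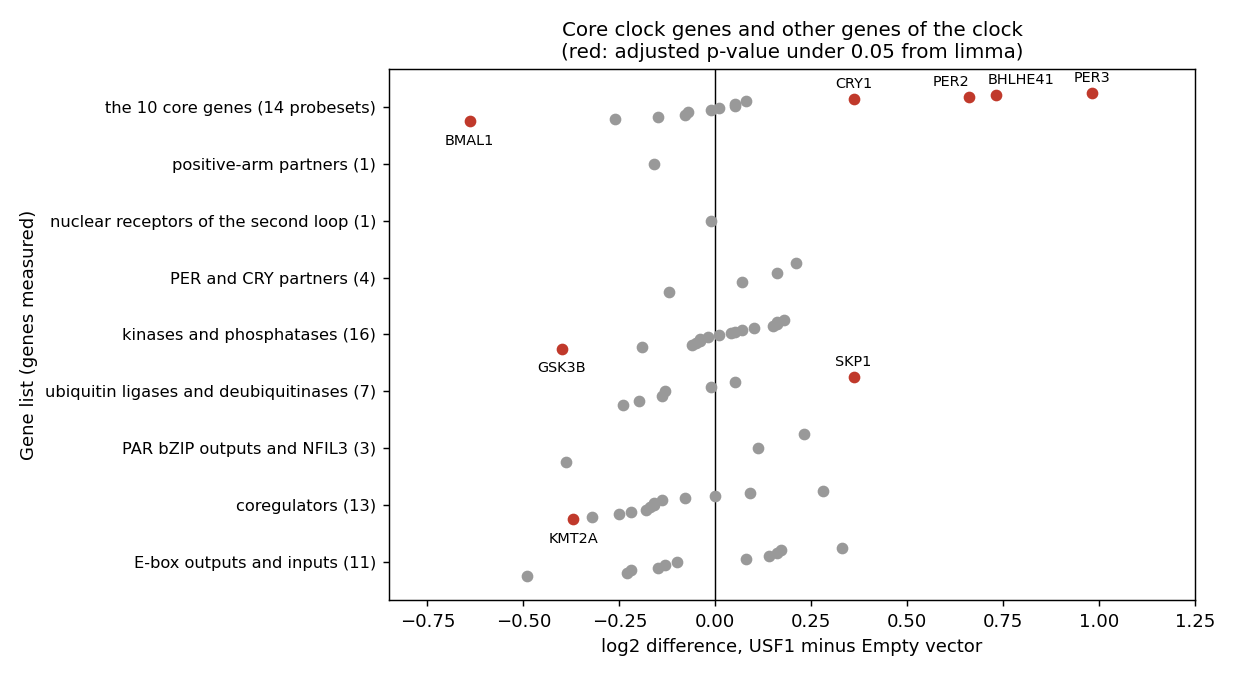
Log2 difference, USF1 minus Empty vector (horizontal axis), for the 14 probesets of the core clock genes and for the measured genes of 8 lists of other clock genes (vertical axis), each at its brightest probeset, in red where called. The core genes hold 5 red points between -0.64 and 0.98, and the lists together hold 3.

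The genes whose values followed those of *PER3*, the clock gene with the smallest adjusted p-value, most closely over the 6 arrays were *FRMD8*, *STX6* and *CDV3*, with Pearson's r of 0.9977, 0.9964 and 0.9943. These are descriptions over 6 arrays that fall into 2 groups. *FRMD8* had 6.78, 6.82 and 6.73 in USF1 arrays, against 6.53, 6.56 and 6.45 in Empty vector arrays. The log2 differences were smaller than that of *PER3*, at 0.26 (SE 0.08) for *FRMD8*, 0.43 (SE 0.10) for *STX6* and 0.06 (SE 0.08) for *CDV3*, and *STX6* alone of them was called (adjusted p-value = 0.0305 from limma).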

How the data were processed

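Expression was measured on 6 arrays, grouped and numbered as their titles say. The deposited log2 values are RMA values that the authors made with justRMA in R 2.8.0, which subtracts background and normalizes quantiles, with mis-targeted and nonspecific probes masked. They left out probesets with few probes left or mostly called absent, and applied ComBat against batch effects. The sources used here do not name the batches, and p-values rest on the spread that ComBat left. Log2 differences (USF1 minus Empty vector) were fitted with lmFit and eBayes of limma 3.58.1 in R 4.3.3 over all 16569 probesets, without covariates, and p-values were adjusted over all of them (Benjamini-Hochberg). The prior had 4.53 degrees of freedom. The number of arrays limits the precision. The fit was also run on simulated data with known changes. Those values were drawn independently for each array, so this does not check the p-values of these arrays.

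Probesets were named from the platform annotation (570 of several genes, 900 unnamed). All probesets of the 10 genes are named, and from each further list the called genes, with others to complete a count. For the likeness to *PER3*, the 3 genes with the highest correlation were taken. The members and lists were chosen with earlier results of these data known. Promoters are RefSeq sequences of GRCh38.p14. Alternatives were other tests, priors, weights, scalings and filters, a replicate block, other choices of probesets, and leaving out each array.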

Additional observations from a re-analysis of the deposited data

How the results depend on the processing

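The 5 called clock probesets kept their direction under each alternative that could be run. *PER3*, *CRY2* and 2 probesets of *CLOCK* have no value after the dimmest 25% of probesets are left out, since these hold them, and the other 4 called probesets stayed called there. Without single arrays, 2 to 5 clock probesets, 0 to 4 other clock genes and 369 to 2222 of all probesets were called. By the methods' t-test after Benjamini-Hochberg adjustment, 0 clock probesets, 0 other clock genes and 1 of all probesets were called with unequal variances, and 0, 1 and 160 with equal variances. At the methods' own unadjusted threshold, both forms called 5 clock probesets (4 higher and 1 lower), which is 35.7%. Of all probesets the unequal form called 20.6% and the equal form 25.7%. At an unadjusted p-value under 0.05 limma called 5 of 14 clock probesets, 11 of 56 other clock genes and 5186 of 16569 probesets. The share over all probesets was thus nearer to that of the clock probesets than at the adjusted threshold. With array weights 5, 6 and 3688 of these were called after adjustment. Over all probesets of the listed genes, 5 of 111 were called with limma after adjustment (1 higher and 4 lower), against 1974 of 16569 for all probesets (11.9%). Higher values made up 36.2% of all calls, 56.1% after median centring of the arrays and 50.4% after a further quantile normalization, and 4 of the 5 clock calls under each.

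Signs turned in probesets that did not pass. Without single arrays the log2 difference ranged from -0.276 to 0.007 for *PER1* 202861_at, -0.025 to 0.095 for *CRY2*, -0.153 to 0.124 for *CLOCK* 204980_at, -0.126 to 0.238 for *BHLHE40* 201169_s_at and -0.07 to 0.043 for *NR1D1*. With array weights *CLOCK* 204980_at was at -0.079 and *BHLHE40* 201169_s_at at -0.039, and after centring *CLOCK* 225856_at was at 0.003. *NR1D1* was at 0.058 after centring and 0.06 after a further quantile normalization. Against Empty vector replicate 3 alone, a comparison chosen after the data were seen, the sign turned for *PER1* 202861_at (0.099), *CLOCK* 204980_at (-0.097) and *BHLHE40* 201169_s_at (-0.332). It held for *PER1* 36829_at (0.196), *CRY2* (0.197) and *NR1D1* (-0.117), whose differences were larger than with all arrays, and *PER3* was at 1.267. The cause of these changes was not tested.

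With the replicate number as a block, 5 clock probesets, 4 other clock genes and 2875 of all probesets were called. Deviations of same-numbered arrays correlated at 0.0958, 0.246 and 0.129, and each array correlated best with its own number, but the labels state no shared batch, so the numbers were not taken as pairs.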

Other observations

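The USF1 arrays ranked alike in many of the clock probesets. USF1 replicate 2 was the highest of the 3 USF1 arrays in 9 of the 14 probesets (64.3%) and USF1 replicate 3 the lowest in 11 (78.6%), where over all probesets these shares were 39.4% and 46.1%. Both held in all 5 called probesets, in *BMAL1*, which fell, as in the 4 that rose. Of the Empty vector arrays, replicate 3 was the lowest in 7 of the 14 probesets and in 3 of the 5 called ones, against 43.9% of all probesets, and none was the highest in more than 2 of those 5.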
